A study of Mus musculus with 8 samples.

Results

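The machinery that starts transcription in every nucleus was followed through its mRNAs: the subunits of RNA polymerases I, II and III, the general transcription factors, the TATA-binding protein (TBP)-associated factors (TAFs) and the Mediator complex. Its members were the rows of the expression table whose gene symbol began with Polr1, Polr2 or Polr3 and a letter, with Gtf2 or Gtf3, with Taf and a digit, or with Med and a digit. These were 103 of the 25574 genes of the table: 28 polymerase subunits, 30 Mediator subunits, 22 TAFs and TAF-like proteins, and 23 Gtf2 and Gtf3 factors. The rule used names only and no measured value, but earlier results of these data were known when it was chosen.

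The RNA came from oocytes of 8-week-old CD1 mice, all taken 46 h after a dose of pregnant mare serum gonadotropin. Fully grown oocytes in the germinal vesicle stage were freed of surrounding cells, cultured for 180 min without the inhibitor IBMX so that the nuclear envelope broke down (NEBD stage), and treated with cycloheximide, which holds ribosomes on the mRNA. Lysates of 200 oocytes were separated on sucrose gradients. The fractions were pooled into a non-polysomal dataset (NP, free mRNA and single ribosomes) and a polysomal dataset (P, mRNA carrying several ribosomes). Each dataset had 4 libraries. The top fraction of each gradient was left out, and the paper does not exclude that some stored mRNA was lost with it. Nor does it exclude heavy stored particles that sediment with polysomes. Both pools came from the same 4 gradients, but the main tests below treat the libraries as unpaired. No agent or genotype differed between the datasets. The comparison asks which of these mRNAs were found with polysomes and which in the stored pool. Because P and NP are relative levels within separately amplified libraries, a higher FPKM (fragments per kilobase of gene, scaled to the size of the library) in P is a higher share of the P library, and not the share of an mRNA that was bound to polysomes.

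RNA polymerase I makes ribosomal RNA, RNA polymerase II makes mRNA, and RNA polymerase III makes transfer RNA and the 5S ribosomal RNA. At an mRNA promoter TFIID, made of TBP and TAFs, is joined by TFIIA, TFIIB, TFIIE, TFIIF and TFIIH, and Mediator links the assembled complex to activators bound elsewhere. The fully grown mouse oocyte is transcriptionally silent and lives on mRNA made during growth, much of it stored with a short poly(A) tail; transcription starts again in the embryo after fertilisation.

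Most of the machinery was present as mRNA, and no member passed the test between P and NP. A value above 0 in all 8 libraries was found for 79 members, and the mean exceeded 1 FPKM in both datasets for 89. Per library, 96 to 101 members were above 0 in NP and 88 to 97 in P, while the share of all genes above 0 was 45.8% to 53.8% in NP and 35.7% to 44.3% in P. Together the members made up 1% to 1.19% of all FPKM in NP and 0.971% to 1.63% in P, so the ranges overlapped. Summed over the members, FPKM averaged 5840 ± 1147 over the NP libraries and 6339 ± 2930 over the P libraries (SD, 4 libraries each).

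**Figure D1:**
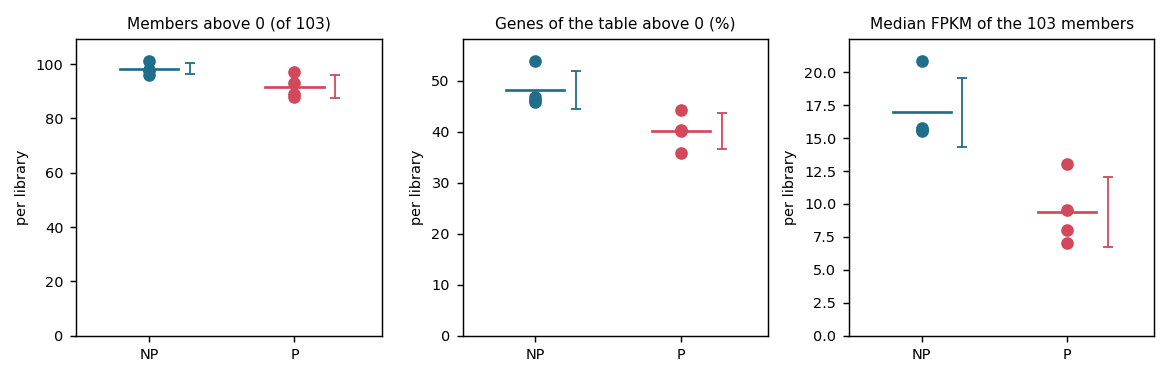
Members detected, genes detected and the median FPKM of the 103 members in each library. Points are libraries, horizontal lines are means and error bars are SD (n = 4 in each dataset); in all 3 panels the mean was lower in P, and the share of genes above 0 did not overlap between the datasets (45.8% to 53.8% in NP, 35.7% to 44.3% in P).

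The test was limma on log2(FPKM + 1), fitted across all 14292 genes whose mean was above 0.1 FPKM in at least 1 dataset; 100 members passed this filter. Polr3gl, Gtf2ird2 and Taf7l did not pass. Taf1d, Gtf3c5 and Gtf3c6 passed through NP alone and Gtf2i through P alone. At an adjusted p under 0.1, 0 members were called, and 3 genes of the whole table (0.021%) were; the lowest adjusted p of a member was 0.405. On reads recovered from the FPKM steps, limma-voom called 1 member, Gtf3c5, and 64 of 12569 genes in all (0.509%). With limma's unadjusted p under 0.05, 12 members were lower in P, where 9.47% of all tested genes were, and 1 member was higher in P, where 0.476% were. All 4 NP values lay above all 4 P values for 8 members (5.92% of all tested genes), and the reverse held for 2 members (0.357%). The shares of members, 12% and 8% lower and 1% and 2% higher, are read against those of the whole table: the lower shares are near them, and the higher ones rest on 1 and 2 genes. Single libraries moved these counts: 7 members were lower without NP2 and 19 without P1, and 16 members had all NP values above all P values without NP4 and 15 without P1.

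**Figure D2:**
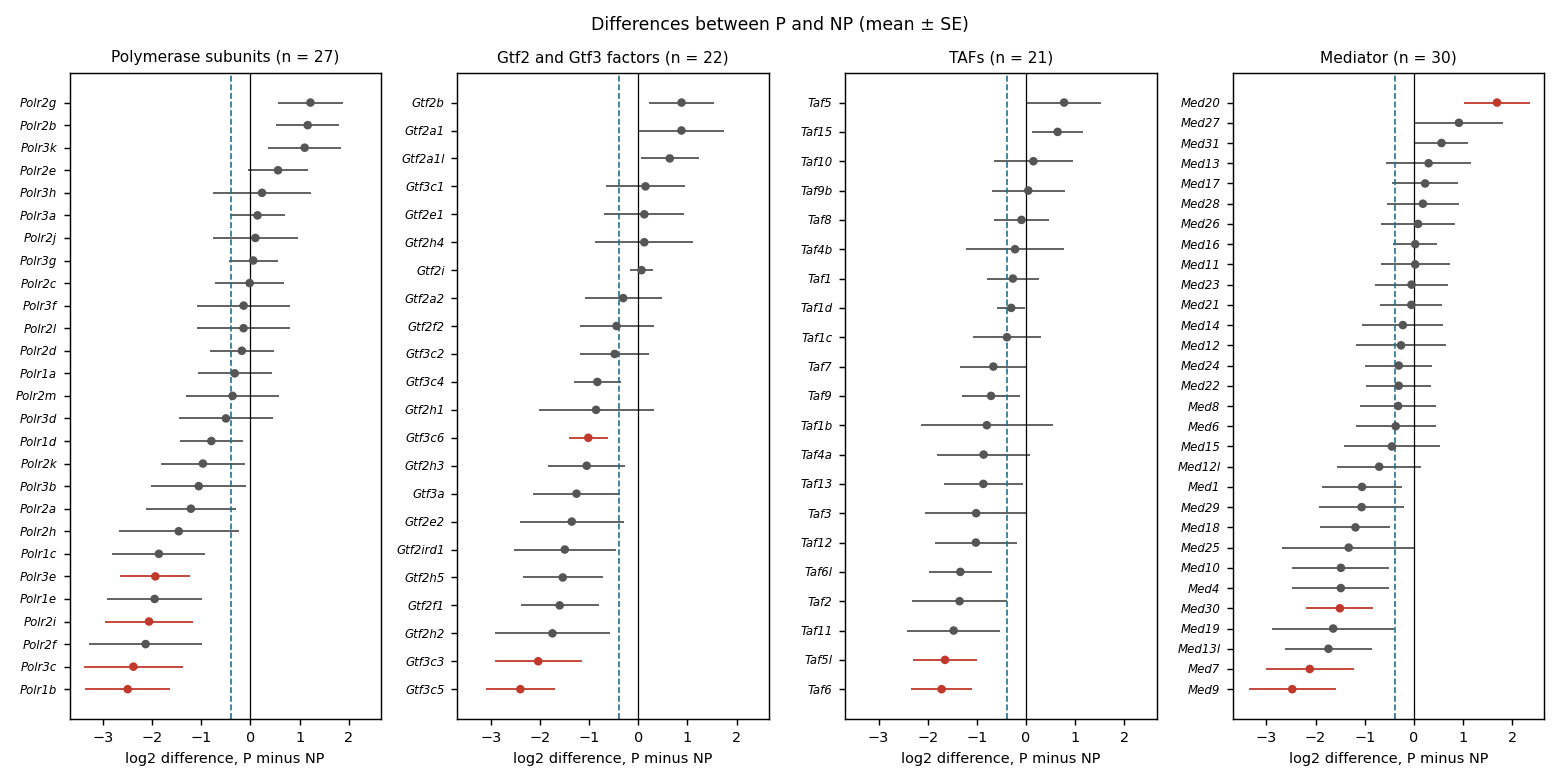
Difference between P and NP on the log2(FPKM + 1) scale for the 100 members tested, with its standard error. Red marks an unadjusted p under 0.05, the solid line is 0 and the dashed line is the median of all tested genes (-0.39); 72 members lay below 0 and 28 above.

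The median difference of the members was -0.46 on the log2(FPKM + 1) scale, against -0.39 for all tested genes, and 72% of members and 71.4% of all tested genes lay below 0. The displacement changed with the scaling. With quantile normalization the median of all tested genes was -0.02 and that of the members -0.09, and 6 members were lower and 4 higher in P with an unadjusted p under 0.05, where 4.04% and 2.55% of all tested genes were. With the median of each library set equal, the medians were 0.21 and 0.46, and the counts with an unadjusted p under 0.05 became 3 members lower and 13 higher in P, where 2.73% and 7% of all tested genes were. The 13 members named by their p below kept their sign under both other scalings. Med9, Gtf3c5, Gtf3c6 and Med20 kept an unadjusted p under 0.05 in both.

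The mRNAs of 10 members had NP and P values that did not overlap. In oocytes, the end of the 3′ UTR holds signals for polyadenylation and translation: the cytoplasmic polyadenylation element (CPE), with the letters TTTTAT or TTTTAAT in DNA, is bound by CPEB and lies near the polyadenylation signal AATAAA. The windows below, which let a reader see the ends of these mRNAs, hold 30 bases around the CPE nearest the 3′ end, or around AATAAA where the last 150 bases of the GENCODE M21 transcript held no CPE, with the motif in capitals. Positions are in GRCm38.

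Gtf3c3, chr1:54396004-54396033, minus strand, CPE: tatgtaaataaatcctatTTTTATaattga
Polr2b, chr5:77349247-77349276, plus strand, CPE: ttgtgataagaaTTTTATttgttttgttta
Gtf3c5, chr2:28566320-28566349, minus strand, AATAAA: tgcttttggtacAATAAAtataaaactccc
Gtf3c6, chr10:40247705-40247734, minus strand, AATAAA: gctctttgaagtAATAAAagtatattgcat
Med30, chr15:52730527-52730556, plus strand, AATAAA: gaaactatttaaAATAAAaatatatcggat
Polr1b, chr2:129126562-129126591, plus strand, AATAAA: gcaggccagtacAATAAAcagaaaatggaa
Polr3e, chr7:120947399-120947428, plus strand, AATAAA: aaatcaaaatgtAATAAAgttttttttttt
Taf6, chr5:138178622-138178651, minus strand, AATAAA: taagttcctcagAATAAAagttggatttgt

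Med20 and Taf5l held neither motif in the last 150 bases. The CPE of Polr2b began 66 bases before the annotated end, and the one of Gtf3c3 began 12 bases before it. On the sense strand, a CPE was found in 28 of the 92 members with a 3′ UTR of at least 150 bases (30.4%), and in 25.2% of the 10485 tested protein-coding genes with such a window; AATAAA was found in 67.4% and 67.6%. Of the members lower in P with an unadjusted p under 0.05, 1 of 11 held a CPE, against 27 of the 81 other members and 20.6% of all genes lower in P by the same p. A match is a run of letters and not a shown binding site, and the ends that oocytes use were not measured here. The windows of Gtf3c3, Gtf3c6 and Med30 lie outside the gene span given in the deposited table.

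**Figure D3:**
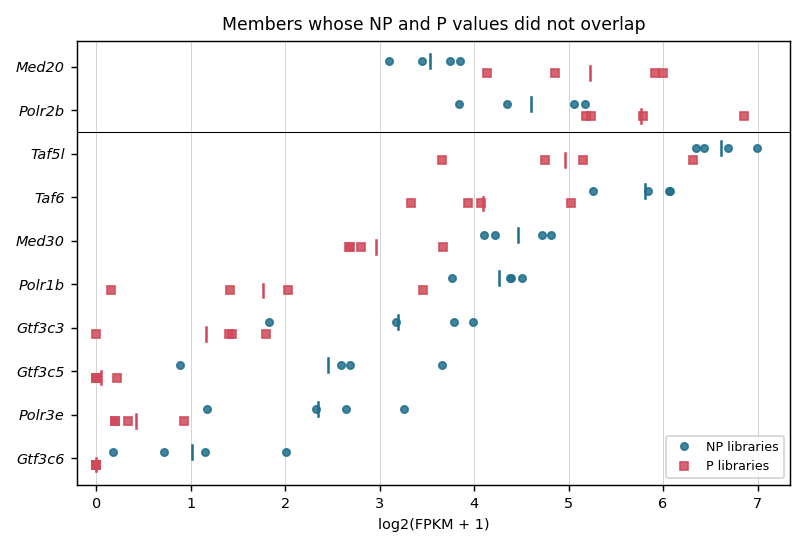
Values in each library of the 10 members whose NP and P values did not overlap, on the log2(FPKM + 1) scale; short vertical lines are means. Med20 and Polr2b lay higher in P and the other 8 lower; Gtf3c6 was listed at 0 in all 4 P libraries.

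RNA polymerase I is built around Polr1a, its largest subunit, and Polr1b, which together form the active site. Polr1a was at 17.2, 15.5, 23 and 9.14 FPKM in NP1 to NP4 and at 21.1, 3.42, 14.7 and 18.7 FPKM in P1 to P4, and the ranges overlapped. Polr1b was at 12.6, 20, 21.7 and 19.8 FPKM in NP and at 3.08, 9.99, 0.116 and 1.67 FPKM in P. No P library reached the NP range for Polr1b, with a difference of -2.50 ± 0.86 (log2(FPKM + 1), SE; limma's unadjusted p = 0.0119, adjusted p = 0.416). Its partner at the active site did not show this (Polr1a, -0.32 ± 0.75, unadjusted p = 0.677); the difference between the genes was not tested. P3 held 3 recovered reads of Polr1b. Polr1e, a subunit that helps the enzyme bind its promoter factors, was at 69 to 114 FPKM in NP and split in P, at 2.35 and 7.47 FPKM in P1 and P4 and at 76.9 and 100 FPKM in P2 and P3. The subunits shared by polymerases I and III, Polr1c and Polr1d, had mean levels of 9.8 and 41 FPKM in NP and of 2.4 and 24.2 FPKM in P, with unadjusted p of 0.0697 and 0.236.

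RNA polymerase II had the most abundant mRNAs of the whole set and also some of the scarce ones. Polr2d, which forms the stalk of the enzyme with Polr2g, was the highest member, at 1159, 791, 400 and 1075 FPKM in NP and 1409, 376, 321 and 1426 FPKM in P. It ranked 69 among all genes of the table by the mean over 8 libraries. Polr2c, an assembly subunit, followed at 811, 724, 281 and 487 FPKM in NP and 1677, 298, 179 and 860 FPKM in P. For both genes P1 and P4 were high and P2 and P3 low, and the datasets overlapped (unadjusted p = 0.793 and 0.983). Polr2g was at 370, 238, 54.6 and 149 FPKM in NP and 623, 233, 280 and 527 FPKM in P, a difference of 1.22 ± 0.65 (unadjusted p = 0.0823).

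The catalytic subunits of RNA polymerase II stood far below these. Over 99 members, exon length and mean log2(FPKM + 1) correlated at r = -0.31. The part of length in comparisons of level between genes was not tested. Polr2a, the largest subunit, was at 5.45, 1.52, 14 and 9.8 FPKM in NP and 6.81, 0.618, 1.72 and 1.69 FPKM in P. Polr2b was at 19.3, 13.4, 32.2 and 35.1 FPKM in NP and 115, 54.3, 36.8 and 35.4 FPKM in P. Polr2b exceeded Polr2a in all 8 libraries, a mean of 25 against 7.7 FPKM in NP and 60.4 against 2.71 FPKM in P. For Polr2b every P library lay above every NP library, but P4 at 35.4 FPKM barely exceeded NP4 at 35.1 FPKM, and the test was not passed (1.17 ± 0.64, unadjusted p = 0.0908). With quantile normalization and with equal medians limma's unadjusted p was 0.0233 and 0.0013 (adjusted p = 0.731 and 0.415). Under these scalings 2.55% and 7% of all tested genes were higher in P with an unadjusted p under 0.05. With equal medians 13 members were, Polr2b, Polr2g, Gtf2b and Gtf2a1l among them. The difference of Polr2a was -1.21 ± 0.92 (unadjusted p = 0.209).

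Among the small subunits, Polr2i, which takes part in transcript cleavage and start site choice, was lower in P, at 139, 97.2, 31.6 and 38.4 FPKM in NP and 13.2, 19.6, 2.04 and 64.4 FPKM in P (-2.06 ± 0.89, unadjusted p = 0.0357, adjusted p = 0.478). P4 lay within the NP range. Annotated exons of Polr2i share 26.8% of their bases with other genes, of which Tbcb overlaps the most. Reads of an unstranded library in those bases cannot be assigned to any single gene. Polr2j ran from 41.5 to 637 FPKM in NP and from 40.3 to 456 FPKM in P. Exons of Polr2j share 15.9% of their bases with other genes, and those of Polr2c 18.1%. The share was over 10% for 19 of the 102 members with an annotation. Of the 5 subunits common to all 3 polymerases, Polr2e was at 75.2 to 176 FPKM in NP and 79.9 to 365 FPKM in P. Polr2f was split between P libraries, at 114 and 102 FPKM in P1 and P4 and at 8.04 and 0.414 FPKM in P2 and P3. Polr2k and Polr2l were at 0 to 10.2 FPKM in all libraries.

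**Figure D4:**
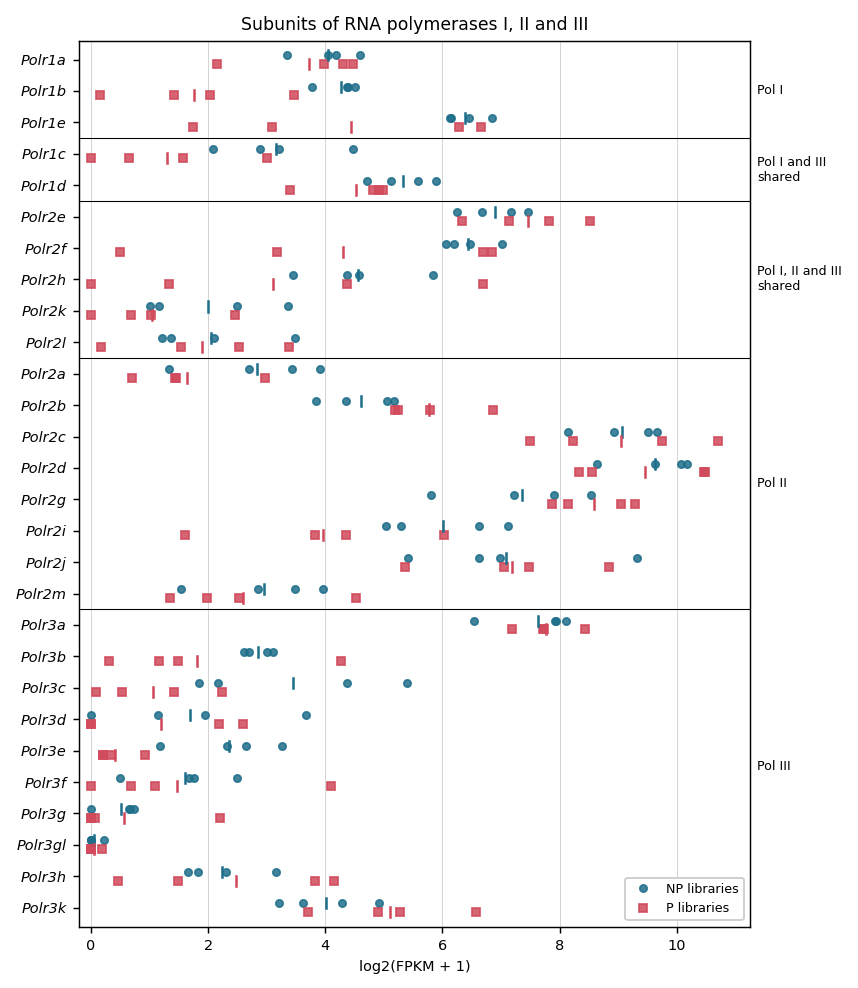
Levels of the 28 polymerase subunits in each library on the log2(FPKM + 1) scale, grouped by enzyme; circles are NP, squares are P and short vertical lines are means. Polr2d, Polr2c, Polr2g and Polr3a stand at the high end in both datasets, and Polr3g and Polr3gl at the low end.

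Among the 10 Polr3 members, subunits of RNA polymerase III, Polr3a had the highest mean over the 8 libraries. Polr3a, the largest subunit of this enzyme, was at 240, 245, 275 and 92.3 FPKM in NP and 346, 210, 144 and 213 FPKM in P. Polr3b, the partner at its active site, was at 7.59, 7.01, 5.12 and 5.48 FPKM in NP and 1.23, 1.81, 0.233 and 18.2 FPKM in P. The lowest Polr3a value, 92.3 FPKM, exceeded the highest Polr3b value, 18.2 FPKM, and Polr3a was the higher gene in all 8 libraries. Neither differed between P and NP past the test (0.14 ± 0.56, unadjusted p = 0.8; -1.05 ± 0.96, unadjusted p = 0.294). Annotated exons of Polr3a share 0% of their bases with another gene.

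The subunits Polr3c and Polr3e were lower in P. Polr3e, part of the module that works in initiation and termination, was at 1.26, 4, 5.26 and 8.58 FPKM in NP and at 0.151, 0.147, 0.903 and 0.265 FPKM in P, without overlap (-1.93 ± 0.71, unadjusted p = 0.0168, adjusted p = 0.42). These are low levels: 3, 2, 17 and 3 recovered reads in P1 to P4, against 17, 22, 162 and 276 in NP1 to NP4. Polr3c, which sits in the initiation module, was at 3.52, 19.8, 2.6 and 40.9 FPKM in NP and 3.71, 1.66, 0.0664 and 0.441 FPKM in P, and P1 lay inside the NP range (-2.38 ± 1.01, unadjusted p = 0.0338). The paralogues Polr3g and Polr3gl, alternative subunits of that module, were near 0: Polr3g did not exceed 0.663 FPKM in NP and reached 3.61 FPKM in P4 alone, and Polr3gl was above 0 in 2 libraries, at 0.172 and 0.133 FPKM. Polr3k, a small subunit used in RNA cleavage, was at 8.22 to 29.3 FPKM in NP and 12.1 to 93.8 FPKM in P (1.10 ± 0.75, unadjusted p = 0.161).

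Among the factors that open the assembly at a promoter, TFIIB and the large subunits of TFIIA had higher means in P, while the small TFIIA subunit Gtf2a2 was at 3.15 FPKM in NP and 2.34 FPKM in P. Gtf2b, the single protein that makes up TFIIB and places the polymerase at the start site, was at 561, 202, 191 and 245 FPKM in NP and 1634, 323, 246 and 472 FPKM in P, and all P libraries but P1 lay inside the NP range (0.88 ± 0.66, unadjusted p = 0.203). Gtf2a1l, the germ cell paralogue of the large TFIIA subunit, was at 227, 108, 82 and 112 FPKM in NP and 236, 344, 87.4 and 191 FPKM in P. Gtf2a1, the form found in most cells, was at 2.3, 1.1, 5.26 and 6.69 FPKM in NP and 8.76, 3.85, 13.7 and 4.48 FPKM in P. The germ cell form was the higher in all 8 libraries, and its lowest value of 82 FPKM exceeded the highest of 13.7 FPKM of Gtf2a1. Neither passed the test (unadjusted p = 0.298 and 0.323).

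TFIIE, TFIIF and TFIIH were of moderate or low level. Gtf2e1, which recruits TFIIH, was at 1.4 to 5.2 FPKM in NP and 1.43 to 5.62 FPKM in P. Gtf2f1, the large TFIIF subunit, was at 33.4, 57.4, 71.1 and 23.2 FPKM in NP and 59.2, 9.08, 4.59 and 11.3 FPKM in P; 3 P libraries lay under every NP library and P1 did not (-1.60 ± 0.79, unadjusted p = 0.0631). Gtf2h1 of the TFIIH core ran from 3.04 to 72.9 FPKM in NP and from 0.876 to 64.3 FPKM in P, with the highest value in replicate 3 of both datasets. None of the 5 TFIIH core members had an unadjusted p under 0.05, and 4 of them had a negative difference, beside 71.4% of all tested genes. The TFII-I relatives Gtf2i and Gtf2ird2 did not exceed 0.526 FPKM in any library.

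TFIIIC, the assembly factor of transfer RNA genes, held 3 of the 12 members that were lower in P with an unadjusted p under 0.05. TFIIIA and TFIIIC together had 7 tested members, and 9.47% of all tested genes were lower by this p. Gtf3c2 (-0.48, limma's unadjusted p = 0.504) and Gtf3c4 (-0.83, unadjusted p = 0.105) were not among the 12. Exons of Gtf3c2 share 38.9% of their bases with other genes. Gtf3c3 was at 8.03, 14.9, 12.8 and 2.54 FPKM in NP and 1.7, 0, 1.65 and 2.49 FPKM in P. NP4 and P4 differed by a small step, so the groups are separate but close (-2.03 ± 0.88, unadjusted p = 0.0367, adjusted p = 0.479). Gtf3c5 was at 5.01, 0.844, 5.42 and 11.6 FPKM in NP, was listed at 0 in P1, P2 and P3, and was at 0.164 FPKM in P4. It entered the test through NP alone, the dataset in which it was high. This was the lowest p of any member (-2.40 ± 0.71, unadjusted p = 0.00448, adjusted p = 0.405). The reads recovered from the FPKM steps were 660 over the 4 NP libraries and 2 over the 4 P libraries, a ratio per library size of 256 with an exact 95% counting interval of 70.6 to 2119, which leaves out the spread between libraries and amplification. On these reads, limma-voom gave an adjusted p of 0.0318 for Gtf3c5, and it was the only member called by it.

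Gtf3c6 was at 1.23, 3.02, 0.135 and 0.645 FPKM in NP and was listed at 0 in all 4 P libraries (unadjusted p = 0.0241). It rested on 14 recovered reads in NP, and the level was at least 3.62-fold lower in P when 3 reads over the group are taken as the limit. Gtf3c6 also entered the test through NP alone, and for it and Gtf3c5 the separation was in part a condition of being tested. The largest TFIIIC subunit, Gtf3c1, showed no such difference, at 10.7, 29.2, 40.3 and 15.7 FPKM in NP and 34.5, 15, 81.4 and 6.81 FPKM in P (0.15 ± 0.81, unadjusted p = 0.858). Gtf3a, the 5S RNA gene factor TFIIIA, was at 237, 375, 94.4 and 52 FPKM in NP and 304, 41, 13.4 and 74.2 FPKM in P (limma's unadjusted p = 0.179). Its exons share 59.1% of their bases with other genes, of which Mtif3 overlaps the most. Over the 7 members of TFIIIA and TFIIIC the median difference was -1.02, -0.69 with quantile normalization and -0.40 with equal medians.

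TAFs had an even summed FPKM across the NP libraries and a lower one in P, but they did not separate gene by gene or as a share of each library. The summed FPKM of all 22 was 841, 814, 819 and 783 in NP and 731, 470, 676 and 570 in P, without overlap. As a share of all FPKM of a library the sum was 0.136% to 0.188% in NP and 0.0895% to 0.173% in P, and these ranges overlapped. The median difference was -0.71 over the 21 tested, -0.35 with quantile normalization and 0.24 with equal medians, so its direction depended on the scaling.

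Taf6 and Taf5l separated the datasets. Taf6, a histone-fold scaffold of TFIID, was at 66.2, 56.4, 37.3 and 66 FPKM in NP and 31.6, 9.08, 14.3 and 15.8 FPKM in P (-1.72 ± 0.62, limma's unadjusted p = 0.0153, adjusted p = 0.416). Its exons share 26.5% of their bases with other genes, of which Ap4m1 overlaps the most. Taf5l, which takes the place of Taf5 in the SAGA histone acetyltransferase, was at 127, 85.3, 102 and 80.2 FPKM in NP and 25.8, 11.6, 78.5 and 34.5 FPKM in P (-1.65 ± 0.64, unadjusted p = 0.0227, adjusted p = 0.44). P3 reached nearly the lowest NP library. Taf6l, the SAGA counterpart of Taf6, was at 136, 157, 54.2 and 40.9 FPKM in NP and 47.7, 21.7, 39.6 and 26.4 FPKM in P (-1.34 ± 0.63, unadjusted p = 0.0538), with P1 above NP4. Taf5 itself was at 9.33, 15.6, 33.9 and 8.61 FPKM in NP and 57, 19.1, 35.7 and 10.4 FPKM in P (0.77 ± 0.74, unadjusted p = 0.317).

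The largest TFIID subunit, Taf1, was scarce, at 0.484 to 3.28 FPKM in NP and 0.555 to 0.884 FPKM in P. Taf8 was at 104 to 265 FPKM in NP and 108 to 276 FPKM in P, the highest level of the TAFs. Of the gonadal TAF paralogues, Taf7l was above 0 in 1 library, at 0.117 FPKM in NP4, while Taf7 was at 20.2 to 77.7 FPKM in NP and 16 to 66.7 FPKM in P. Taf4b, needed for ovarian follicles and oocyte growth, was at 6.02, 8.82, 10.2 and 0.0767 FPKM in NP and 4.17, 8, 5.33 and 0.508 FPKM in P, below Taf4a in 7 of 8 libraries. Taf4a was at 69.3, 25.9, 22.9 and 6.55 FPKM in NP and 54.1, 2.7, 5.4 and 22.9 FPKM in P. Taf9 and Taf9b were each the higher in 4 libraries. Exons of Taf9 share 73.8% of their bases with other genes, of which Ak6 overlaps the most.

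Taf1b, a subunit of the polymerase I factor SL1, shows how far 1 library could move a mean. It was chosen after its values were seen. Its level was 8.84, 4.57, 13.9 and 14.5 FPKM in NP and 1.37, 0, 2.12 and 186 FPKM in P. The P mean was the higher (47.3 against 10.4 FPKM), while 3 of 4 P libraries lay below every NP library.

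**Figure D5:**
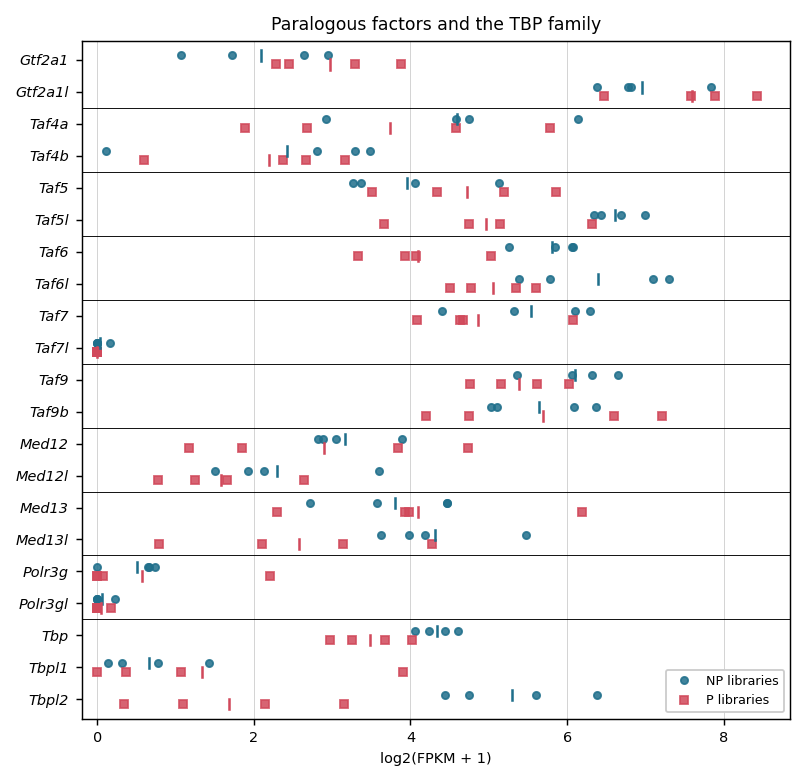
Paralogous factors and the TBP family in each library on the log2(FPKM + 1) scale; circles are NP, squares are P and short vertical lines are means. Gtf2a1l stood above Gtf2a1 and Taf7 above Taf7l in all 8 libraries, and Tbpl2 was lower in every P library than in every NP library.

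Mediator has head, middle and tail modules and a kinase module that comes on and off. Its subunits summed to 1487 ± 285 FPKM over the NP libraries and to 1542 ± 481 FPKM over the P libraries (SD, 4 libraries each). Of 30 subunits, 3 were lower and 1 was higher in P with an unadjusted p under 0.05, beside 9.47% and 0.476% of all tested genes. The median difference over the 30 was -0.32, and it was 0.06 with quantile normalization and 0.90 with equal medians. Over the 9 middle subunits it was -1.49, -1.04 and -0.17 in the same order.

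Med20, a head subunit that pairs with Med18, was the only member higher in P by the unadjusted p. Its level was 13.5, 9.88, 7.56 and 12.4 FPKM in NP and 62.8, 27.9, 16.6 and 59.3 FPKM in P, and every P library lay above every NP library (1.69 ± 0.68, unadjusted p = 0.0257, adjusted p = 0.45). The recovered reads numbered 315, 94, 403 and 691 in NP1 to NP4 and 2160, 655, 540 and 1164 in P1 to P4. Other genes share 28.4% of the annotated exon bases of Med20, and a pseudogene of Kpna2 overlaps the most. Without P1 or P4, or without NP2 or NP3, no member was higher in P with an unadjusted p under 0.05.

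Med30, another head subunit, was at 16.2, 17.7, 25.4 and 27.1 FPKM in NP and 11.7, 5.37, 5.42 and 6 FPKM in P, again without overlap but in the opposite direction (-1.51 ± 0.68, unadjusted p = 0.0445, adjusted p = 0.494). Med17, the scaffold of the head, was at 133, 139, 117 and 82.9 FPKM in NP and 325, 202, 146 and 35.1 FPKM in P. P4 was the lowest and P1 the highest of all 8 libraries for Med17, and the test was not passed (0.23 ± 0.67, unadjusted p = 0.741).

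Both other members lower in P belong to the middle module. Med7, a subunit of the hinge, was at 21.7, 18, 26.2 and 21.4 FPKM in NP and 21.8, 1.2, 7.91 and 0.65 FPKM in P; P1 lay among the NP libraries (-2.12 ± 0.90, unadjusted p = 0.0335). Its exons share 21.2% of their bases with other genes, of which 2310031A07Rik overlaps the most. Med9 was at 15.2, 13.6, 5.51 and 2.19 FPKM in NP and 2.88, 0.325, 0 and 0 FPKM in P (-2.48 ± 0.88, unadjusted p = 0.0141, adjusted p = 0.416), with 26, 2, 0 and 0 recovered reads in P. Med10, the most abundant Mediator mRNA, was at 461, 234, 213 and 155 FPKM in NP and split in P, at 462 and 330 FPKM in P1 and P2 and at 25.6 and 13.4 FPKM in P3 and P4. Annotated exons of Med10 share 92.8% of their bases with other genes, of which Gm26819 overlaps the most. The value cannot be assigned to Med10 alone. Med1, the subunit that nuclear receptors bind, was at 19.4 to 40.1 FPKM in NP and 4.35 to 60.4 FPKM in P (unadjusted p = 0.211).

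Med14, the backbone that joins the modules, was at 8.9, 11.2, 31.3 and 25.1 FPKM in NP and 5.59, 5.66, 41.5 and 28.3 FPKM in P (unadjusted p = 0.789). In both datasets its replicates 3 and 4 were above replicates 1 and 2. In the kinase module, Med13l was at 17.1, 14.8, 43.3 and 11.4 FPKM in NP and 0.733, 3.29, 18.3 and 7.84 FPKM in P (-1.74 ± 0.88, unadjusted p = 0.0674). Its paralogue Med13 had the other sign, at 5.55, 21, 10.9 and 21 FPKM in NP and 3.91, 14.8, 72 and 14.3 FPKM in P (0.30 ± 0.87, unadjusted p = 0.736); the difference between the paralogues was not tested. Med12 was at 6.08 to 13.9 FPKM in NP and 1.26 to 25.6 FPKM in P, and above Med12l in 7 of 8 libraries. Exons of Med12l share 17.3% of their bases with other genes. The kinase itself, Cdk8, was at 2.99, 2.78, 9.2 and 3.39 FPKM in NP and 7.62, 0.321, 11.3 and 27.9 FPKM in P (unadjusted p = 0.53).

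The partners of this machinery that carry other names were taken from a list of 52 genes: TBP and its relatives, the TFIIH kinase and helicases, TFIIIB and SNAPc, polymerase I factors, elongation factors and the mitochondrial transcription proteins. Of 51 tested, 9 were lower and 0 higher in P with limma's unadjusted p under 0.05, where 9.47% and 0.476% of all tested genes were, and none had an adjusted p under 0.1. Of these 9, Snapc2, Snapc5 and Tfb2m entered the test through NP alone, so being lower in P was in part a condition of being tested. With equal medians the counts were 4 lower and 2 higher, beside 2.73% and 7% of all tested genes.

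Tbpl2 had the lowest p of the partners. It encodes the TBP relative that replaces TBP at the promoters of the growing oocyte. Its level was 82.5, 20.6, 47.5 and 25.8 FPKM in NP and 7.87, 1.13, 3.43 and 0.271 FPKM in P. All P libraries were under all NP libraries, also with quantile normalization and with equal medians (-3.61 ± 0.84, unadjusted p = 0.000734, adjusted p = 0.344). Tbp itself was at 20.7, 15.6, 23.4 and 17.8 FPKM in NP and 6.84, 8.57, 15.2 and 11.8 FPKM in P, also without overlap, but close at P3 and NP2, and the test was not passed (-0.85 ± 0.66, unadjusted p = 0.216). With equal medians the difference of Tbp was 0.41. Tbpl1 did not exceed 1.68 FPKM outside P1, where it was 13.9 FPKM. Exons of Tbp share 19% of their bases with other genes, and those of Tbpl1 12.4%.

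Of the 4 partners listed under mitochondrial transcription, 2 were lower in P with limma's unadjusted p under 0.05. Polrmt (-2.01, unadjusted p = 0.0656) and Tfam (-0.28, unadjusted p = 0.511) were not. Tfb1m, a ribosomal RNA methyltransferase of mitochondria, was at 82.9, 125, 60.6 and 296 FPKM in NP and 80.5, 3.06, 19.5 and 11.5 FPKM in P (-2.79 ± 0.86, unadjusted p = 0.00598). Tfb2m, the initiation factor of the mitochondrial polymerase, was at 0.376 to 1.96 FPKM in NP, at 0.0759 FPKM in P1 and listed at 0 in the other P libraries (unadjusted p = 0.0167). Snapc5 and Snapc2, subunits of the small nuclear RNA promoter complex, were listed at 0 in all P libraries. Snapc5 was at 23.4, 51.4 and 51 FPKM in NP2 to NP4 and listed at 0 in NP1 too (unadjusted p = 0.00434), and Snapc2 reached 2.69 FPKM in NP (unadjusted p = 0.0274).

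A further 4 partners were lower in P by the unadjusted p. Maf1, the repressor of polymerase III, was at 144, 132, 10.2 and 19.3 FPKM in NP and 0.882, 11.5, 10.1 and 30.2 FPKM in P (unadjusted p = 0.0442). Ccnt1, the cyclin of the elongation kinase P-TEFb, was at 46.3, 42.6, 104 and 59.6 FPKM in NP and 19.3, 37.1, 27.8 and 2.24 FPKM in P, without overlap (unadjusted p = 0.0329). Its kinase Cdk9 was at 0.0286 to 9.68 FPKM in NP and 0 to 9.03 FPKM in P (unadjusted p = 0.387). Ercc2, a TFIIH helicase, was at 7.31 to 93.2 FPKM in NP and 0 to 25.2 FPKM in P (limma's unadjusted p = 0.0397). Its exons share 42.7% of their bases with other genes, of which Gm26852 overlaps the most. The TFIIH kinase Cdk7 was at 5.07 to 12.7 FPKM in NP and 1.69 to 18.2 FPKM in P (unadjusted p = 0.45). Crcp, a polymerase III subunit, was at 2.67 to 29.6 FPKM in NP and 0 to 5.68 FPKM in P (unadjusted p = 0.0368).

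The labelled cell type was checked against its markers. Of 12 oocyte markers, 11 were above 0 in all 8 libraries and Figla in all but P2, with a summed level of 6315 to 12627 FPKM in NP and 8628 to 30196 FPKM in P. Of 18 cumulus and granulosa markers 7 were at 0 in every library, among them Foxl2 and Amhr2, and the summed level of the list was 16.6 to 141 FPKM in NP and 22.9 to 64.1 FPKM in P. Most of that sum came from Cyp19a1 at 6.07 to 75.2 FPKM in NP and 0.19 to 62.6 FPKM in P, from Nr5a2 at 8.43 to 61.4 FPKM in NP and 0.487 to 35.9 FPKM in P, and from Cyp11a1, which reached 46.4 FPKM in NP4 and 17.9 FPKM in P4. Of 4 blood markers 3 were at 0 in every library, and Cd68 was above 0 in 3 NP libraries only. The part of depth, detection and these markers in the differences above was not tested beyond the alternatives given.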

How the data were processed

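Mouse oocyte RNA was depleted of ribosomal RNA, primed with random and oligo-dT primers, amplified as a whole transcriptome and made into unstranded libraries, 4 NP and 4 P. According to the study's methods, the authors ran Trim Galore 0.4.1 for trimming and HISAT2 2.0.5 for alignment to the GRCm38 assembly, and SeqMonk gave the gene levels; the deposited values used here are FPKM per gene. The deposited tables with the authors' means, ratios and comparison results were not used, and neither were the pooled columns.

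The members and lists were chosen with earlier results of these data known. Genes with a mean FPKM above 0.1 in NP or P (14292) were tested with limma 3.58.1 (R 4.3.3) on log2(FPKM + 1) with an intensity trend, 2-sided, with Benjamini-Hochberg adjustment over all of them and a threshold of 0.1. On data simulated with the spread of these libraries, this step returned the direction and median size of known changes. Many of the changes missed the adjusted threshold. They were placed only on genes of higher mean level and without a shift of whole libraries, so low members were not covered. Low deposited FPKM values fall on multiples of 1 step for genes of a given length in a library; these steps gave scaling numbers of 1299377 to 7594637 per library, so that 1 step on 1 kb was worth 0.132 to 0.77 FPKM. Where a gene's length could be matched (101 of 103 members), steps were read as recovered reads and fitted with limma-voom, an alternative chosen after seeing the data. For 48 of those members the length was searched rather than annotated. Amplified reads are not independent molecules, so counting intervals and limits cover counting error only.

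Named were the catalytic subunits, the paralogue pairs, 10 core subunits, members and partners with an unadjusted p under 0.05, members without overlap, and the 5 highest members of each dataset. Polr1c, Polr1d, Polr1e, Polr2e, Polr2f, Polr2k, Polr2l, Polr3k, Taf1b, Taf8, Gtf2a2, Gtf2i, Gtf2ird2, Gtf3c2, Gtf3c4, Polrmt and Tfam fell outside this rule and were described after their values were seen. Groups and replicate numbers came from the sample titles. According to the paper each gradient gave both pools, but nothing in the labels says whether same-numbered NP and P libraries share one. The main test had no replicate block, which was fitted as an alternative. Sequences were read from GENCODE M21 transcripts, 1 per gene, and compared with the GRCm38 genome.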

Additional observations from a re-analysis of the deposited data

Results flagged for a closer look

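Within each dataset of 4 libraries, 119 groups of values of named genes were examined for a library far from the other 3 on the log2(FPKM + 1) scale, by Dixon's ratio and its 95% critical value. In 8 groups a library stood apart, and no cause was examined. Chance alone gives about 1 in 20 groups where values are normally distributed, and this rate does not hold for groups with several values at 0. Polr3a was at 92.3 FPKM in NP replicate 4, where the other NP libraries were at 240 to 275 FPKM. Polr3g was at 0 in NP replicate 1 and at 3.61 FPKM in P replicate 4. Polr1b was at 12.6 FPKM in NP replicate 1, below the other NP libraries, and Med30 was at 11.7 FPKM in P replicate 1, above the other P libraries. Gtf3c5 was at 0.164 FPKM in P replicate 4 and Tfb2m at 0.0759 FPKM in P replicate 1, each the only P library above 0. With all other values at 0 the ratio is 1 at any level, so these 2 flags were fixed in advance. Cdk8 was at 9.2 FPKM in NP replicate 3.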

How the results depend on the processing

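Genes called at an adjusted p under 0.1 numbered 3, and 5 with a pseudocount of 0.1, 5 with a mean FPKM above 1, 20 without the trend, 1 with the replicate block, 64 with voom on recovered reads, 0 without a filter, with quantile normalization or with median centring, and 0 to 5 with 1 library left out (0 without any 1 of the NP libraries or P3, 5 without P1); of members, voom called 1. Members lower in P by the unadjusted p (12) became 6 with quantile normalization, 3 with median centring and 15 with the replicate block. They became 7 to 19 with 1 library left out (7 without NP2, 19 without P1). With the replicate block, 11.3% of all tested genes were lower in P and 0.812% higher. Members higher in P (1) became 4 with quantile normalization, 13 with median centring, 2 with the replicate block, 2 with voom and 0 to 2 with 1 left out. Members with NP above P (8) became 2 with quantile normalization and 2 with median centring, and 9 to 16 with 1 left out, since fewer values must then be separate (16 without NP4, 15 without P1); members with P above NP (2) became 10 with median centring. Partners lower in P (9) became 4 under either scaling and 5 to 9 with 1 left out (5 without NP1), and partners higher (0) became 2 with median centring. The members' median (-0.46) was -0.77 with a pseudocount of 0.1, -0.091 with quantile normalization and reversed to 0.46 with median centring. Relative to all tested genes (-0.073) it was 0.25 with median centring, 0.22 with voom and 0.21 as a ratio of mean FPKM. The summed FPKM of P over NP (1.09) was 2.71 with median centring. The cause of these shifts was not tested. With the replicate block 12 of the 13 members kept their unadjusted p under 0.05 and Med30 had 0.0574; same-numbered deviations correlated at 0.139, 0.0518, 0.251 and 0.155, and 7 of 8 libraries correlated best with their own number. For single genes named, 845 of 973 alternatives kept the side of the threshold, 100 lost it, 28 gained it, and 0 reversed past it. The sign of the difference changed in 66 of the 973 alternatives. Depth limits the low members: in NP2, 1 step on 1 kb was 0.77 FPKM.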
